A study of Mus musculus with 12 samples.

Results

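The narrowest Ino80 peaks of mouse embryonic stem cells were examined. They are the autosomal peaks of at most 1000 bp in the deposited peak list, and they numbered 316 of 12542 autosomal peaks and of 12749 peaks in all. The members were chosen on their called width, so their width is a description and was not tested. Width, position and every distance below come from the same peak calling on the same library.

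The peaks come from a chromatin immunoprecipitation sequencing (ChIP-seq) library made with an antibody to Ino80 from J1, a line of mouse embryonic stem cells. In this assay fixed chromatin is sheared, fragments bound by the protein are recovered with the antibody, and their DNA is sequenced. The cells were kept in ESGRO medium and moved to M15 medium for the ChIP, and the labels name no hairpin, drug or genetic change for this library. The series holds 12 samples in groups of 1, of which the Ino80 ChIP alone was analysed here, so no value carries a replicate error. Sites that bind in every cell and sites that bind in a fraction of the cells cannot be told apart in such a bulk library.

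Ino80 is the ATPase of the INO80 complex, an ATP-dependent chromatin remodeller that slides and spaces nucleosomes and acts in transcription, replication and DNA repair. In embryonic stem cells it is known to occupy promoters and enhancers of active genes, among them those of the pluripotency network. The peak caller named in the submitters' processing notes joins neighbouring enriched windows into islands, so a wide peak can hold many binding events and a narrow one stands for a short run of enriched windows.

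Narrow peaks were rare, and most were near the limit of 1000 bp. They made up 2.52% of autosomal peaks (95% exact binomial interval 2.25 to 2.81%, which covers counting error only, as do all intervals below). Their summed length of 277.6 kb was 0.51% of the 54.5 Mb that autosomal peaks covered. The list steps in widths of 200 bp, and numbers fell towards the short end. There were 173 members of 1000 bp, 95 of 800 bp, 47 of 600 bp and 1 of 400 bp. The 400 bp peak, the shortest on any autosome, lay at chr18:17723401-17723800 in mm9, 144.8 kb from the nearest wider peak. Just outside the limit there were 229 peaks of 1200 bp and 348 of 1400 bp, so the limit of 1000 bp did not fall in a gap of the width distribution.

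Most narrow peaks were not satellites of a wider one. A satellite is here a peak with another peak wider than 1000 bp less than 5 kb away, measured from edge to edge, and a peak is called alone when no other wider peak lies within 100 kb. Satellites numbered 32 of 316 members, or 10.1% (7.03 to 14.0%), while 23.7% of all autosomal peaks had another wider peak at that distance. A further 49 members (15.5%) had their nearest wider peak at 5 to 20 kb, against 26.8% of all autosomal peaks, and 88 (27.8%) had it at 20 to 100 kb, against 31.5%. The remaining 147 members, 46.5% (40.9 to 52.2%), stood alone, against 18.0% of all autosomal peaks. These shares are descriptions of the list, and no test was made because neighbouring peaks of 1 library are not replicates.

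The distances gave the same order. From a narrow peak to the nearest wider peak the median was 84.7 kb (95% interval of the median 60.6 to 111.6 kb, quartiles 18.95 and 256.9 kb). From a wider peak to the next wider one the median was 19.2 kb (18.4 to 19.8 kb). Edge to edge, a wide peak reaches nearer to its neighbour than a short one. Between midpoints the medians were 86.75 kb for narrow and 23.6 kb for wider peaks, and the share of peaks alone was 46.5% and 17.8%. The satellite share did not hold under that measure. Less than 5 kb from midpoint to midpoint were 5.38% of narrow (3.16 to 8.47%) and 3.72% of wider peaks. The order turned, by less than the counting interval. Since no peaks lay nearer than 1000 bp, a pair whose widths sum to 8000 bp or more cannot have midpoints that close. With midpoint distances of 10 and 20 kb, chosen after the data were seen, narrow peaks were again lower, at 12.7% against 22.7% and 23.7% against 45.0%.

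**Figure D1:**
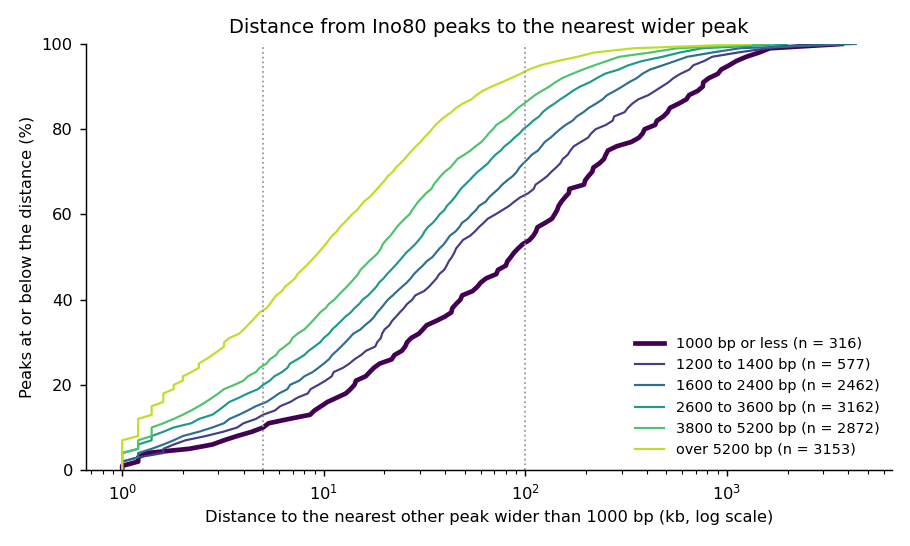
Cumulative share of autosomal Ino80 peaks (%) by the distance to the nearest other peak wider than 1000 bp (kb, log scale), 1 line per width class, with dotted lines at 5 and 100 kb. The line of the narrow peaks runs lowest over most of the range and crosses 50% at 84.7 kb, and the lines of wider classes lie in order of width.

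These values were graded over the width of the peaks, with the narrow ones at one end. The share of peaks alone was 46.5% at 1000 bp or less, 35.5% (31.6 to 39.6%) at 1200 to 1400 bp and 27.6% (25.8 to 29.4%) at 1600 to 2400 bp. It went on falling to 19.8% at 2600 to 3600 bp, 13.9% at 3800 to 5200 bp and 6.34% above 5200 bp. The satellite share rose along the same classes, from 10.1% through 12.8%, 15.5%, 19.6% and 24.1% to 37.2%. The intervals of the members and of the 1200 to 1400 bp class overlapped for satellites (7.03 to 14.0% and 10.2 to 15.8%) and did not overlap for peaks alone. Within the members the grading went on, with 42.8% alone at 1000 bp (74 of 173), 48.4% at 800 bp (46 of 95) and 55.3% at 600 bp (26 of 47). The intervals of these last 3 shares overlapped (35.3 to 50.5%, 38.0 to 58.9% and 40.1 to 69.8%).

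**Figure D2:**
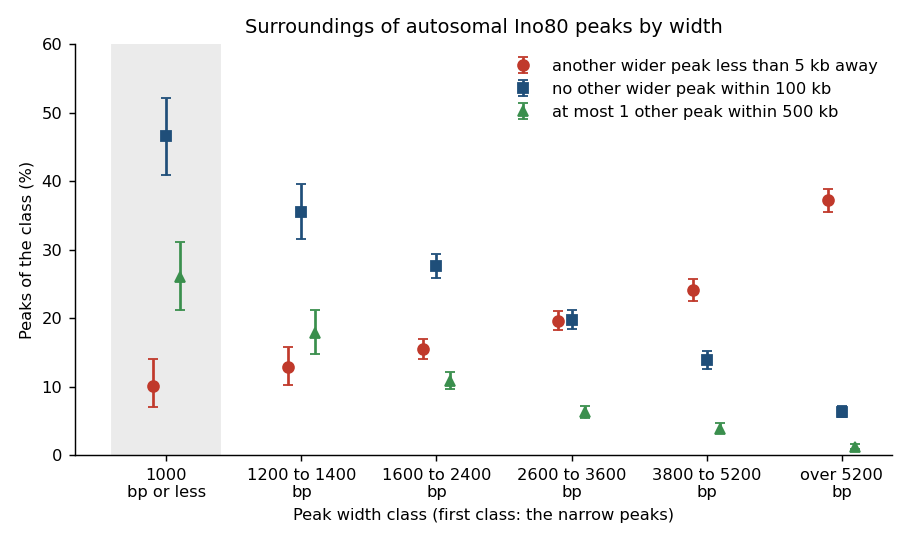
Share of autosomal peaks (%) in each width class with another wider peak less than 5 kb away (circles), with no other wider peak within 100 kb (squares) and with at most 1 other peak within 500 kb (triangles); bars are 95% exact binomial intervals and the shaded class holds the 316 narrow peaks. Squares and triangles fall from left to right, from 46.5 to 6.34% and from 25.9 to 1.24%, while circles rise from 10.1 to 37.2%.

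The 32 satellites, by definition less than 5 kb from their partner, lay on either side of it. The partner lay at the lower coordinate in 16 and at the higher coordinate in 14, and 2 had partners at equal distances on both sides. The median distance was 2.1 kb, with 15 satellites under 2 kb and 17 at 2 to 5 kb. Another wider peak lay under 2 kb from 4.75% of all members and 12.9% of wider peaks, and under 5 kb from 10.1% and 24.1%. In 6 of them the distance was 1000 bp, the smallest between any autosomal peaks of the list and the distance of 307 neighbouring pairs. A narrow enriched stretch nearer to a wide peak than that is not listed as a peak of its own, so its absence says nothing of Ino80 there.

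By the rule for named regions, 5 of these 6 are given. The member at chr9:99327601-99328600, 1000 bp wide, had wider peaks 1.0 kb away on both sides, of which the left one, from 99311401 to 99326600, was 15200 bp wide. At chr14:106319801-106320400 a member of 600 bp lay 1.0 kb before a peak of 3600 bp. The member at chr13:59814601-59815600 followed a peak of 2600 bp. These partners ranged from 2600 to 15200 bp. At chr19:61299601-61300600 the member preceded a peak of 2000 bp, and at chr4:117169001-117170000 it followed one of 1800 bp, so a satellite could also stand beside a peak not much wider than itself. The other satellite with partners on both sides, picked out after its values were seen, lay at chr19:53400201-53401200 with 1.4 kb to each.

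The partners of satellites varied widely in width. Their median was 3500 bp (interval 2200 to 6000 bp, quartiles 2000 and 6300 bp), compared with 3600 bp over all wider autosomal peaks and 4600 bp (4400 to 4600 bp) for the partners of wider peaks that had one within 5 kb. Of the 32 partners, 2 were at least 10 kb wide and 9 (28.1%) at most 2000 bp, against 16.0% of all wider peaks and 9.55% of the partners of wider peaks. A smaller share of narrow than of other peaks lay near broad peaks of 10 kb or more. Within 20 kb of such a peak lay 5 of 316 members, 1.58% (0.516 to 3.65%), and 746 of 11621 peaks between 1200 bp and 10 kb, 6.42% (5.98 to 6.88%). The share of the sequence that lies this near a broad peak was not computed, so narrow peaks are not shown to be scarce there.

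The neighbours of members that stood alone were themselves short. The nearest wider peak of the 147 members alone had a median width of 2400 bp (2200 to 2800 bp), and 20.4% of these neighbours exceeded 3600 bp. For the 2108 wider peaks that were alone, the nearest wider peak had a median of 3000 bp (3000 to 3200 bp), and 35.9% exceeded 3600 bp. The 17 members with no wider peak within 1 Mb had neighbours of 1200 to 4400 bp, with a median of 2000 bp.

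Narrow peaks had fewer other peaks around them than wider peaks had. The number of peaks around positions without a peak was not computed, so the comparison is with other peaks and not with the genome. Within 500 kb on each side of the midpoint, narrow peaks had a median of 4 other peaks of any width (interval 3 to 4, quartiles 1 and 9) and wider peaks a median of 10 (quartiles 5 and 17). At most 1 other peak, called peak-poor here, was found around 82 members, 25.9% (21.2 to 31.2%), and around 6.39% of all autosomal peaks. No other peak was found around 44 members, 13.9% (10.3 to 18.2%), and around 2.55% of all autosomal peaks. Crowded surroundings were not empty of them. At least 10 other peaks lay around 73 members, 23.1% (18.6 to 28.1%), against 50.7% of all autosomal peaks. At least 20 lay around 28, 8.86% (5.97 to 12.6%), against 18.5% of all autosomal peaks, and the most crowded member, at chr7:134530201-134531000, had 34.

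Satellites and members alone differed in their surroundings, as the definition of alone in part requires. Satellites had a median of 13 other peaks within 500 kb (quartiles 8.75 and 19.25), near the 14 of wider peaks with another within 5 kb. Members alone had a median of 1 (interval 1 to 2, quartiles 0 and 3), and wider peaks alone a median of 3 (quartiles 1 and 6). All 44 members without another peak within 500 kb are among the 147 alone, as the definitions require.

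Seen from the region, the share of narrow peaks fell as peaks became more numerous. Among the 320 peaks with no other peak within 500 kb, 13.8% (10.2 to 18.0%) were narrow. The share was 7.88% (5.64 to 10.7%) with 1 other peak, 4.92% (4.0 to 5.98%) with 2 to 4 and 1.91% (1.48 to 2.42%) with 5 to 9. It was 1.12% (0.815 to 1.49%) with 10 to 19 and 1.21% (0.803 to 1.74%) with 20 or more, so the last 2 classes could not be told apart. Even in the emptiest surroundings most peaks were wider than 1000 bp, with a median width of 2200 bp, against 4400 bp in the most crowded class.

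**Figure D3:**
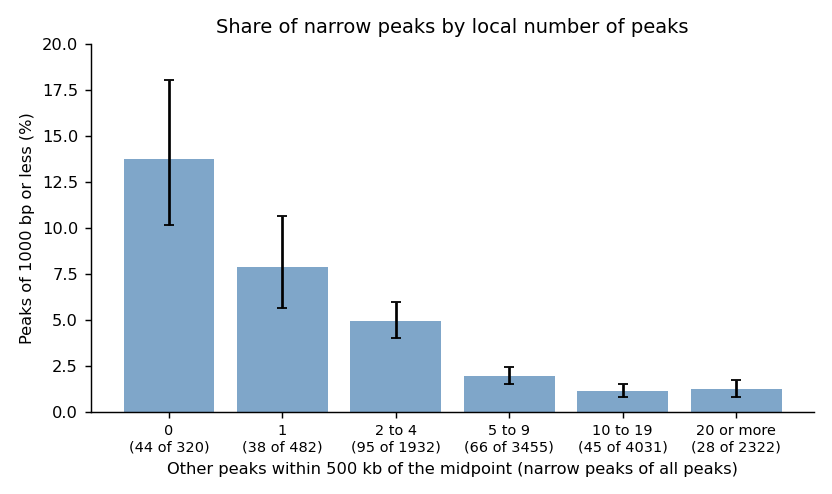
Share of peaks of 1000 bp or less (%) among autosomal peaks grouped by the number of other peaks within 500 kb of the midpoint; bars start at 0, error bars are 95% exact binomial intervals, and narrow and total numbers stand under each bar. The share falls from 13.8% with no other peak to 1.12% with 10 to 19.

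Among the most isolated peaks of the autosomes narrow ones were a minority. Ranked by distance to the nearest peak of any width, the top 100 (all at least 864.8 kb from another peak) held 16 members, 16.0% (9.43 to 24.7%), which were 5.06% of all members, while the top 100 are 0.797% of autosomal peaks. The top 500 (at least 370.6 kb) held 63 members, 12.6% (9.82 to 15.8%) of the rank and 19.9% of the members, against 3.99% of autosomal peaks.

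Between the first and last wider peak of each autosome, 2338 Mb lay outside wider peaks. Of this sequence 38.3% was 100 to 500 kb and 20.6% was 500 kb or more from a wider peak, so the numbers of members were also set against sequence length. These bands held 30.0% and 16.0% of the members counted, below their shares of the sequence. Members were thus far from wider peaks more often than other peaks were, but not more often than sequence length alone would give. Members fell on this sequence at 0.282 per Mb (95% exact Poisson interval 0.190 to 0.403) within 5 kb of a wider peak and at 0.217 per Mb (0.161 to 0.286) at 5 to 20 kb. Further out there were 0.143 per Mb (0.114 to 0.175) at 20 to 100 kb, 0.105 (0.0848 to 0.128) at 100 to 500 kb and 0.104 (0.0771 to 0.137) at 500 kb or more. Per Mb, narrow peaks were thus densest beside wider peaks, although few lay there, since sequence within 5 kb made up 4.55% of the total and held 9.58% of the members counted (30 of 313, placed here by their midpoint and not by their edge, with the 3 members beyond the outermost wider peaks left out). Because no peaks lay nearer than 1000 bp, the sequence next to a wider peak could hold no midpoint of a member. It was still counted, which lowers the density given for the band under 5 kb. Beyond 100 kb the density did not change with distance beyond its interval.

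Somewhat wider peaks were more concentrated near wide ones, above all those of 1600 to 2400 bp. For this comparison, added after the data were seen, all classes were set against the same reference, peaks wider than 2400 bp. Peaks of 1600 to 2400 bp went from 3.47 per Mb (3.07 to 3.90) under 5 kb to 0.330 per Mb (0.290 to 0.374) at 500 kb or more. Peaks of 1200 to 1400 bp went from 0.649 (0.484 to 0.851) to 0.139 (0.114 to 0.169). Narrow peaks went from 0.249 (0.152 to 0.385) to 0.119 (0.0958 to 0.147), with their lowest value, 0.0994 (0.0791 to 0.123), at 100 to 500 kb. The farthest band held 28.9% of the narrow peaks, 18.2% of those of 1200 to 1400 bp and 10.1% of those of 1600 to 2400 bp, and 32.0% of the sequence. Of the 3 classes, the narrow peaks had the share nearest to that of the sequence in this band and under 5 kb, where 6.49% of them, 9.09% and 11.4% of the others and 3.44% of the sequence lay. Here too the sequence too near a reference peak to hold a midpoint was counted, and it is larger for the wider classes.

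**Figure D4:**
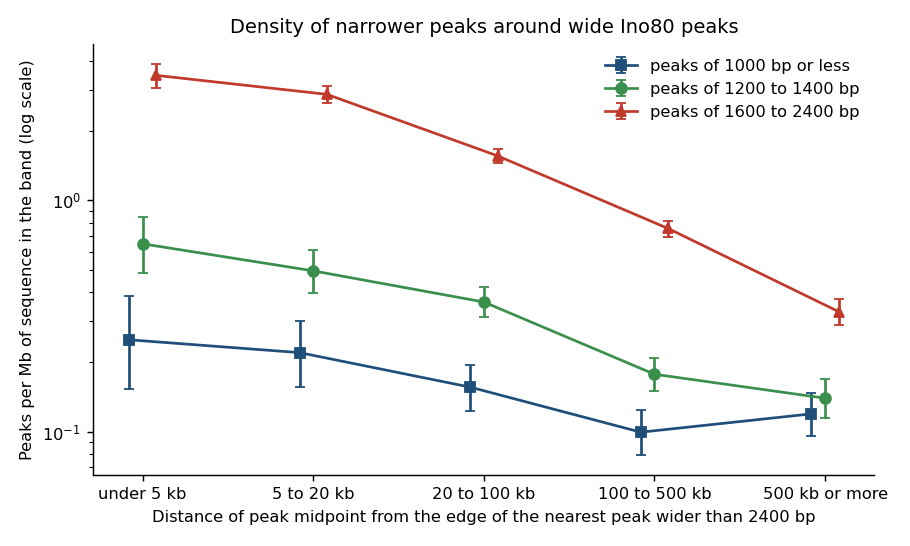
Peaks per Mb of sequence (log scale) in 5 bands of distance from the edge of the nearest peak wider than 2400 bp, for 3 classes of narrower peaks; bars are 95% exact Poisson intervals. The line of the narrow peaks is the flattest, between 0.249 and 0.0994 per Mb, while that of peaks of 1600 to 2400 bp falls from 3.47 to 0.330 per Mb.

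Long stretches without a wider peak held a large number of members but were not crowded with them. There were 512 autosomal stretches of at least 1 Mb between consecutive wider peaks, 42.5% of the sequence outside these peaks, and they held 107 members, 33.9% (28.7 to 39.4%) of the 316. A member was found in 93 of these stretches (18.2%), with 80 holding 1, 12 holding 2 and 1 holding 3. Per Mb the long stretches held 0.108 members and the shorter ones 0.153. Another 3 members lay beyond the outermost wider peak of their chromosome. Inside the long stretches members were found both near the ends and in the middle. The outer 10% at each end, 20% of the length together, held 27 of 107 members, 25.2% (17.3 to 34.6%), and the middle 50% of the length held 47, or 43.9% (34.3 to 53.9%).

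By definition only narrow peaks can lie inside such a stretch. Of the 10 longest stretches, 5 held a narrow peak and the other 5 held none, and of the 100 longest, 27 held at least 1. The longest, at chr15:14099001-25047000, measured 10.9 Mb and held the member farthest from any wider peak, at chr15:21341201-21342000. It was 800 bp wide, with 7.24 Mb to the wider peak on its left and 3.705 Mb to that on its right. The next, 8.58 Mb at chr6:73294601-81873200, held a member of 800 bp at chr6:79752201-79753000, 2.12 Mb from its nearer end. On the same chromosome the stretch of 5.80 Mb from 100952601 to 106749600 had its member, at chr6:106719201-106720000, only 29.6 kb from the right end. Position in a stretch thus varied from the interior to the very edge. A stretch of 5.69 Mb on chromosome 8 held a member at chr8:101989401-101990400, 0.765 Mb from its left end. One of 5.41 Mb on chromosome 10 held a member at chr10:50399201-50400200, 1.55 Mb from its right end. The stretches that ranked between these by length, the longest of them 7.64 Mb on chromosome 7, held no member.

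The 5 members farthest from a wider peak were those of chromosome 15 (3.705 Mb), chromosome 6 (2.12 Mb) and chromosome 10 (1.55 Mb) already described, and 2 more. At chr1:110930401-110931400 a member of 1000 bp lay 1.74 Mb from the nearest wider peak. At chr5:60041201-60042000 a member of 800 bp lay 1.65 Mb from one. In all, 17 members (5.38%, 3.16 to 8.47%) had no wider peak within 1 Mb, against 0.726% of all autosomal peaks. Of these 17, 10 were 800 bp wide, 4 were 1000 bp and 3 were 600 bp.

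**Figure D5:**
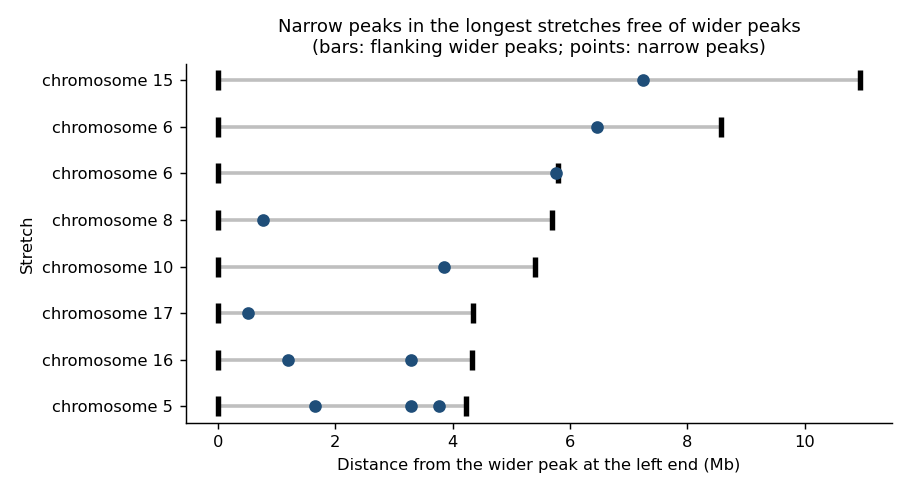
The 8 longest autosomal stretches free of wider peaks that hold a narrow peak, drawn to scale by distance (Mb) from the wider peak at the left end; vertical bars are the flanking wider peaks and points are narrow peaks. The stretches measure 10.9 to 4.22 Mb and hold 1 to 3 narrow peaks each, at positions from the interior to the edge.

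Narrow peaks were sparse, at 0.134 per Mb of the sequence between wider peaks, and few had another narrow peak near them. The median distance from a member to the next member was 2.44 Mb. The nearest peak of any width was itself a member for 15 of 316 members, 4.75% (2.68 to 7.71%), and for 2.22% (1.97 to 2.50%) of wider peaks. Members made up 2.52% of autosomal peaks. A narrow nearest neighbour was thus more frequent for members than for wider peaks, and the intervals did not overlap. The difference rests on 15 members and was not tested. Another member lay within 100 kb of 4 members and within 5 kb of 2, and the same shares over all peaks were not computed. Of 294 stretches between wider peaks that held members, 276 held 1, 17 held 2 and 1 held 3. The run of 3 lay in the stretch of 4.22 Mb at chr5:58393801-62617400, with members at 60041201 to 60042000, 61683601 to 61684200 and 62169201 to 62169800. They were 800, 600 and 600 bp wide.

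The megabase with most members was a crowded one. Counted in bins of 1 Mb from the start of the coordinates, 277 bins held 1 member, 18 held 2 and 1 held 3. That bin, at 87 Mb of chromosome 7, held members at chr7:87298401-87299400, chr7:87484801-87485600 and chr7:87487801-87488400. The last 2 were the members closest to each other, 2.2 kb apart, and the members there had 20 to 21 other peaks within 500 kb. At the other end, 48 members (15.2%, 11.4 to 19.6%) lay in 47 bins that held no wider peak. Wider peaks cannot lie in such bins, and the share of all bins without a wider peak was not computed. The 15.2% thus has no background to be set against.

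The share of narrow peaks differed from the pooled share beyond its counting interval on 3 autosomes. It was highest on chromosome 12, with 20 of 478 peaks or 4.18% (2.57 to 6.39%), and on chromosome 6, with 25 of 607 or 4.12% (2.68 to 6.02%). It was lowest on chromosome 11, with 13 of 1039 or 1.25% (0.668 to 2.13%). On the other 16 of 19 autosomes the interval held the pooled 2.52%. Chromosome 11 carried the most wider peaks per Mb (8.67), and chromosome 12 was among the sparser ones (3.89). The order did not hold throughout. Chromosome 1 (3.70 wider peaks per Mb) had a narrow share of 3.37%, but chromosome 14 (3.75) had 2.24% and chromosome 19 (7.44) had 2.70%. A relation between narrow share and density was not tested. Chromosome 11, lowest in narrow share, held 0.110 members per Mb, inside the range over the autosomes. Members per Mb ran from 0.0773 on chromosome 13 to 0.207 on chromosome 19, a ratio of 2.67, and wider peaks from 3.70 to 8.67, a ratio of 2.34. The member values rest on 9 and 12 peaks and carry no interval, so the 2 ratios do not show which kind varied more.

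Narrow peaks were more isolated than wider peaks on most autosomes taken singly. The share alone was higher in members than in wider peaks on 18 of 19, the exception being chromosome 19 with 8.33% (1 of 12 members) against 12.3%. The median distance to the nearest wider peak was larger on 18 of 19, the exception being chromosome 13 with 27.0 kb against 32.9 kb over 9 members. The satellite share was lower on 17 of 19. It was higher on chromosome 2 (22.2% against 21.3%) and chromosome 5 (26.1% against 22.9%). The peak-poor share was higher on 17 of 19, the exceptions being chromosomes 13 and 19, where 0 of 9 and 0 of 12 members were peak-poor, against 8.54% and 3.24% of wider peaks. On chromosome 1 members were most often alone. Of its 25 members 20 were alone (80.0%, against 27.0% of its wider peaks) and 0 were satellites. By an approximate limit for a count of 0, not an exact interval, this allows a share of up to 12% (3 counts of 25). Chromosomes 3, 8, 10, 16 and 18, with 12 to 18 members each, also held no satellite, with limits of 16.7 to 25% by the same rule. All these limits lie above the 10.1% of all members. Without chromosome 1 the share alone over the other autosomes was 43.6%, and without chromosome 6, which also had 25 members, it was 47.1%.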

How the data were processed

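One deposited peak list, assigned to the Ino80 ChIP by the sample title it carries, was analysed; the other 11 samples were not used here. Per the submitters' processing notes, CASAVA 1.7, Bowtie 0.12.8, SICER 1.1 and bedtools were used, with builds mm9 and hg19. Their roles, the caller's settings, the control library and whether samples were pooled are not stated there. The list deposited by the authors holds other values than measurements of strength: a name, a position and a strand sign per peak. With no read count, fold or score, the depth behind a peak is unknown. All starts were multiples of 200 bp and all ends 1 bp short of one. Coordinates were read as mm9, counted from 0 with inclusive ends, and 1 bp was added to both; this convention is not stated.

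Width was end minus start plus 1. Distances, neighbours and stretches were computed with Python 3.11.15, numpy 2.4.6, pandas 2.3.3 and scipy 1.17.1, and were checked on simulated data with known distances. Shares carry 95% Clopper-Pearson intervals, densities exact Poisson intervals and medians exact order-statistic intervals. These treat peaks as independent, which crowded peaks are not. No test was made. The members, distances and limits were chosen with earlier results of these data known. Regions were named by rule: the smallest width, the 5 farthest from and the 5 nearest to a wider peak (ties by the wider partner), members of the 5 longest stretches that hold one, the richest megabases, the longest runs, and the autosomes with the extreme shares. No mm9 sequence or gene annotation was used here, so no sequence is printed and no gene is assigned; a GRCm38.p6 table was given but not used. Other widths, distances, windows and chromosome sets were tried.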

Additional observations from a re-analysis of the deposited data

How the results depend on the processing

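Of 57 values under alternative settings, 36 stayed within the 95% interval of the value reported. The share alone and the median distance stayed higher in narrow than in wider peaks under all 11 and 9 alternatives, the number of other peaks stayed lower under all 9, and the peak-poor share stayed higher under all 8 that gave a value for both. The share of satellites was lower in 13 of 14, the exception being 5 kb between midpoints (5.38% of members against 3.72%). It was 4.75% at 2 kb, 15.2% at 10 kb and 25.6% at 20 kb edge to edge, 23.7% at 20 kb between midpoints, and 6.65% against peaks wider than 2400 bp, where the share alone was 56.6% and the median distance 149.4 kb (both settings added after the data were seen). The share alone was 58.5% at 50 kb and 31.6% at 200 kb. With a width limit of 1400 bp the median distance was 58.4 kb, the median number of other peaks 5, the peak-poor share 20.7% and the share of autosomal peaks that are narrow 7.12%. The median number of other peaks was 2 within 250 kb and 8 within 1 Mb. The peak-poor share was 13.9% with no other peak, 37.3% with at most 2 and 15.2% by 1 Mb bins without a wider peak. Stretches of at least 0.5 Mb held 50.3% of members and those of at least 2 Mb 17.1%. No paired analysis was possible because the list comes from a single library. The list gives no depth, so weak and strong narrow peaks cannot be told apart.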

Other observations

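Chromosome X was outside the set described. It held 19 peaks of 1000 bp or less among its 207, or 9.18% (95% exact binomial interval 5.62 to 14.0%), against 2.52% (2.25 to 2.81%) on the autosomes. Of these 19, 1 was a satellite of a wider peak, 5.26% (0.133 to 26.0%), and 11 were alone, 57.9% (33.5 to 79.7%). Among the 188 wider peaks of X, 33.5% (26.8 to 40.7%) were alone. The median distance to the nearest wider peak on X was 172 kb for narrow and 41.8 kb for wider peaks.

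Autosomal stretches of at least 2 Mb numbered 159 between wider peaks and 141 between peaks of any width, and those of at least 1 Mb numbered 512 and 510. A narrow peak can cut a long stretch into pieces that still pass the limit, so these differences are not the number of stretches cut. Narrow peaks lay in 44 of the 159 and in 93 of the 512. The outermost listed peak was narrow at 3 of 38 autosome ends.

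On chromosome 17, 3 of the 32 satellites lay 202.6 and 210.8 kb apart, at chr17:35661001-35661800, chr17:35864401-35865200 and chr17:36076001-36077000, each beside a partner of 1200 to 2000 bp and with 23 to 33 other peaks within 500 kb. They were picked out after their values were seen.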
